A study of Mus musculus with 4 samples.

Results

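The 10 genes described here encode secreted or secretory-pathway proteins of intestinal mucus and the goblet cell: Muc2, Fcgbp, Clca1, Zg16, Tff3, Spink4, Retnlb, Agr2, Wfdc2 and the transcription factor Spdef. They were taken by gene symbol, 10 of the 32286 features counted in each library, and all 10 were found. Zg16, Agr2, Retnlb and Wfdc2 were chosen by their levels in this same series, which were higher in crypt cells of EC-Foxc-DKO mice, so levels in crypt cells are given as a description, with no test. Single cells were captured from the distal jejunum of 4 adult male mice, 1 library per mouse, 18.5 h after ischemia and reperfusion (I/R), in which the superior mesenteric artery was clamped and released. The 2 control mice were Foxc1fl/fl;Foxc2fl/fl without Cre. The 2 EC-Foxc-DKO mice carried Cdh5-CreERT2;Foxc1fl/fl;Foxc2fl/fl, in which tamoxifen activates Cre under the promoter of Cdh5, a gene of blood and lymphatic endothelial cells, and removes the floxed alleles there. All 4 mice had floxed alleles, tamoxifen and I/R, so neither an uninjured jejunum nor a mouse with Cre and unfloxed alleles stands in the comparison. Epithelial cells themselves were not the target of the deletion.

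The libraries held 22679 barcodes, of which 5615 cells passed the limit of 10% mitochondrial unique molecular identifiers (UMIs, counts of distinct RNA molecules). Total UMIs per library ranged from 15557181 to 72046346, and kept cells from 348 in control 2 to 2742 in EC-Foxc-DKO 1. Control 2 stood apart by its few epithelial cells and by its mitochondrial share. The median mitochondrial share of its barcodes was 54.004%, beside 14.98% to 25.83% in the other libraries, and 348 of its 3623 barcodes were kept. The part of this gap in the levels of control 2 below was not tested. EC-Foxc-DKO 2 stood apart by its enterocytes, of which 344 of 353 were of the bottom-villus kind. Among blood endothelial-like cells, Foxc1 UMIs numbered 1 in control 1, 5 in control 2, 1 in EC-Foxc-DKO 1 and 0 in EC-Foxc-DKO 2, and Foxc2 had 0 in every mouse, a depth at which loss of either gene was not detectable. Kept cells of each EC-Foxc-DKO mouse held 3 Cre UMIs, and those of each control mouse held 0. Of the kept cells, 24 carried a barcode that another library also held, 2 of them goblet-like or crypt-like.

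Goblet cells are secretory epithelial cells that store mucin in large granules and release it onto the surface of the gut, where it swells into a gel. Muc2 is the gel-forming mucin of the intestine, Fcgbp a protein built into the same gel, and Clca1 a secreted protease that processes it. Zg16 is a lectin that binds bacterial cell walls, Tff3 a trefoil peptide of mucosal repair, Spink4 a protein of the Kazal protease-inhibitor family, and Retnlb a secreted antibacterial protein. Agr2 is a disulfide isomerase of the endoplasmic reticulum that mucin folding requires, Spdef an ETS-family factor of goblet cell maturation, and Wfdc2 a secreted protein of the whey acidic protein family.

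Clusters were named from the marker lists of the study, and a name ends in "-like" because it rests on markers alone. The goblet-like cluster held 123 cells: 32 in control 1, 4 in control 2, 47 in EC-Foxc-DKO 1 and 40 in EC-Foxc-DKO 2. Its leading genes by fold over the other cells were Fcgbp, Clca1, Zg16, Muc2, Defa24, Spink4, Agr2, Tff3, Defa22 and Retnlb. Defa24 and Defa22 are defensins of the Paneth cell, the antimicrobial secretory cell of the crypt base, and the marker list itself covers goblet and Paneth cells together. A list of 12 Paneth genes made up 2317 UMIs in every 1000000 UMIs of the class (written CPM below) in control 1, 118497 in control 2, 2957 in EC-Foxc-DKO 1 and 26791 in EC-Foxc-DKO 2. Cells with 1% or more of their UMIs on that list numbered 2 of 32, 2 of 4, 3 of 47 and 10 of 40 in the same order of mice. The 10 genes together took 23.8% of the UMIs of goblet-like cells in control 1, 22.8% in control 2, 41.4% in EC-Foxc-DKO 1 and 14.0% in EC-Foxc-DKO 2.

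Since the clusters were built partly from these genes, their levels by cell class are a description. Of all UMIs of Muc2, Fcgbp, Clca1 and Zg16 in kept cells, between 87.7% (Zg16, EC-Foxc-DKO 2) and 98.3% (Zg16, control 2) lay in goblet-like cells. For Tff3 this share ran from 82.2% in control 2 to 93.5% in EC-Foxc-DKO 1. Wfdc2 went against the label of the set: goblet-like cells held 0 UMIs of it in 3 mice and 10 in EC-Foxc-DKO 2. Its level was highest in enteroendocrine-like cells, at 14.2, 41.6, 46.9 and 57.0 CPM in control 1, control 2, EC-Foxc-DKO 1 and EC-Foxc-DKO 2. These levels came from few UMIs (5, 3, 12 and 16), and the ranges of enteroendocrine-like and crypt-like cells overlap.

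**Figure D1:**
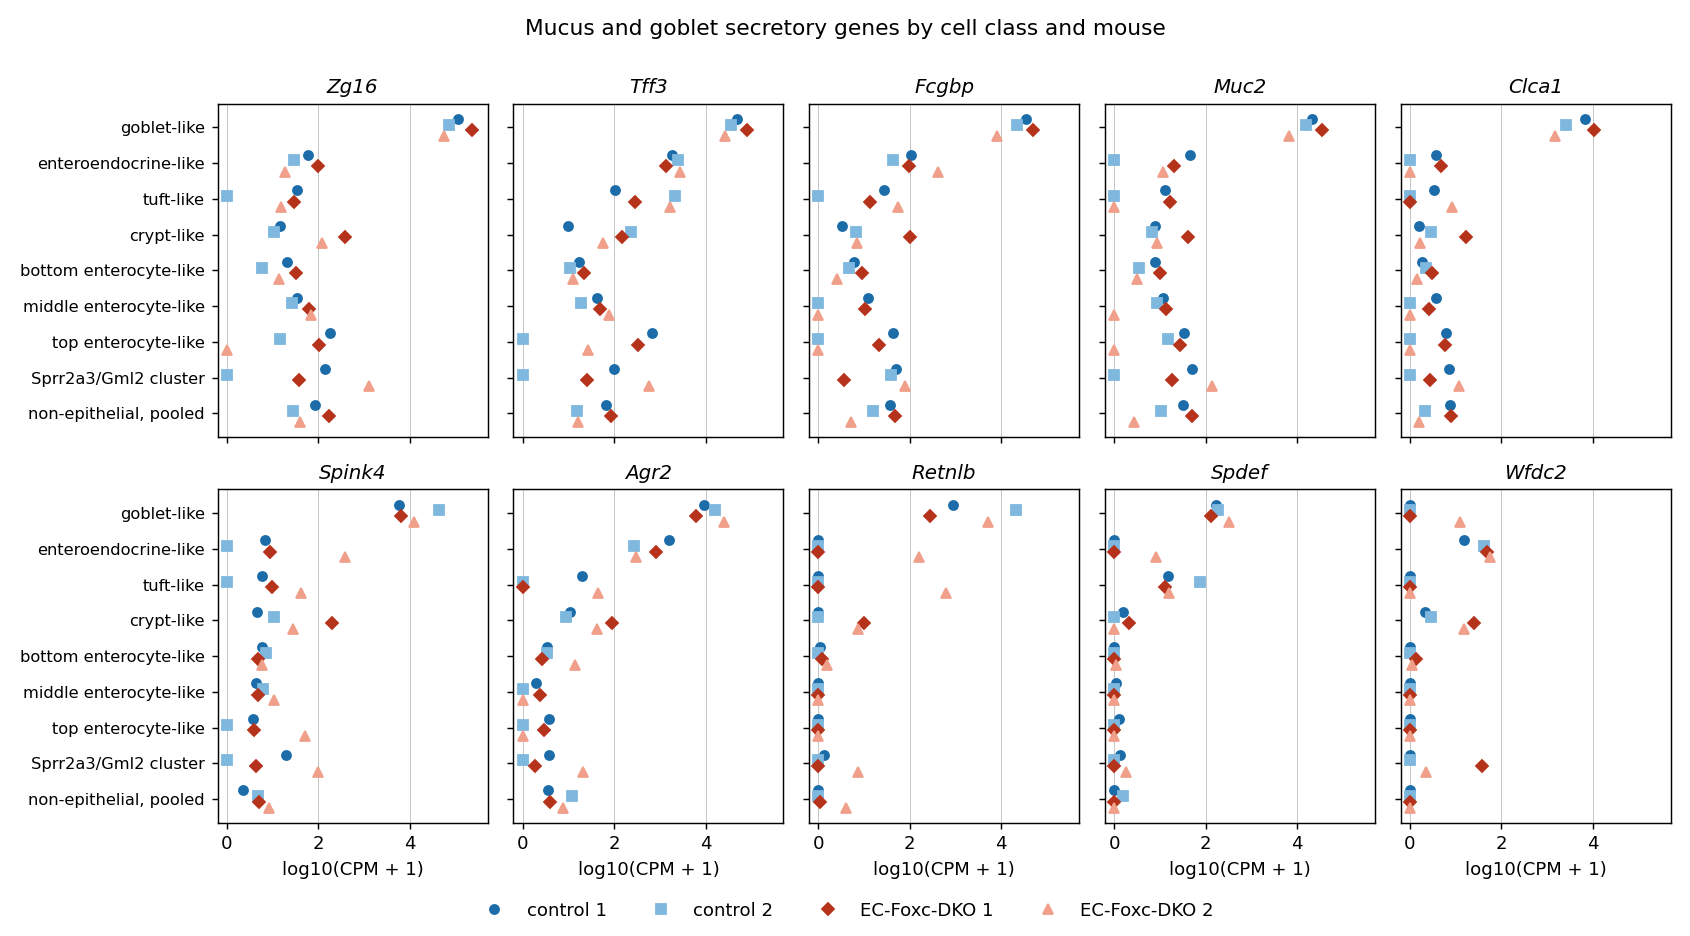
Level of each gene as log10(CPM + 1), where CPM is UMIs of the gene per 1000000 UMIs of the class, in 8 epithelial classes and in pooled non-epithelial cells, with 1 point per mouse. Goblet-like cells stand highest for every gene but Wfdc2, and pooled non-epithelial cells still show Zg16 at 27.6 to 170 CPM.

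RNA released from broken cells can reach a droplet, though the source of background RNA was not tested here. Pooled non-epithelial cells, which should lack these genes, served as the background level, in CPM at their own depth. There Zg16 stood at 81.4, 27.6, 170 and 39.4 CPM, Tff3 at 65.4, 14.3, 85.2 and 15.5 CPM and Muc2 at 31.2, 9.38, 49.4 and 1.79 CPM, in the same order of mice. Agr2 was low, at 2.53, 11, 3.05 and 6.56 CPM, Retnlb had 0 UMIs in both control mice, and Wfdc2 had 0 in all 4. For the 9 genes other than Wfdc2 this level was at most 0.303% of that in goblet-like cells of the same mouse (Spdef, control 2).

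In goblet-like cells the genes of the gel and its lectin fell into 1 pattern across mice. Zg16 stood at 111926 CPM in control 1, 72767 in control 2, 227126 in EC-Foxc-DKO 1 and 54961 in EC-Foxc-DKO 2. Tff3 stood at 48208, 35134, 79349 and 26038 CPM in that order. For both genes EC-Foxc-DKO 1 was the highest mouse and EC-Foxc-DKO 2 the lowest, so the genotypes overlap. Fcgbp stood at 33959, 22169.6, 49240.3 and 8222 CPM, Muc2 at 21484, 15497, 34772 and 6675, and Clca1 at 6940.0, 2583, 10483 and 1463. In the whole class all 5 genes had the same order of mice, with both control mice between the EC-Foxc-DKO mice. The mean Zg16 level was 92347 ± 27689.6 CPM (SD, n = 2) in control mice and 141043 ± 121739 CPM (SD, n = 2) in EC-Foxc-DKO mice. For Muc2 the means were 18490.4 ± 4233 and 20723 ± 19867 CPM (SD, n = 2 each). The order of mice changed without cells rich in Paneth genes, where control 2 kept 2 cells. Control 2 was then the highest mouse for Muc2 (64793 CPM, beside 35392.5 in EC-Foxc-DKO 1), Fcgbp, Clca1 and Tff3. For Zg16 EC-Foxc-DKO 1 stayed highest (220105 CPM, beside 164542 in control 2), and EC-Foxc-DKO 2 stayed lowest for all 5 genes.

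Agr2, Spdef, Spink4 and Retnlb had another order of mice. Agr2 stood at 9167 CPM in control 1, 16242 in control 2, 6047 in EC-Foxc-DKO 1 and 24872 in EC-Foxc-DKO 2. Spdef stood at 172, 182, 129 and 330.5 CPM, the lowest level among the genes detected in every mouse. For both genes EC-Foxc-DKO 2 was the highest mouse and EC-Foxc-DKO 1 the lowest, the reverse of Zg16 and Muc2. Spink4 stood at 5692, 42468, 6302 and 12301 CPM and Retnlb at 858, 20580.2, 279 and 5191 CPM. Control 2, with 4 cells, was the highest mouse for both, and the replicate numbered 2 exceeded the replicate numbered 1 within each genotype. The means were 24080.3 ± 26005 CPM in control and 9301 ± 4242 CPM in EC-Foxc-DKO mice for Spink4, and 10719 ± 13946 and 2735 ± 3473 CPM for Retnlb (SD, n = 2 each). Without cells rich in Paneth genes, control 2 was instead the lowest mouse for Spink4 (5214 CPM), Retnlb and Agr2. Its Agr2 level was then 1062 CPM, beside 6220 CPM in EC-Foxc-DKO 1, while Spdef kept its order of mice.

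**Figure D2:**
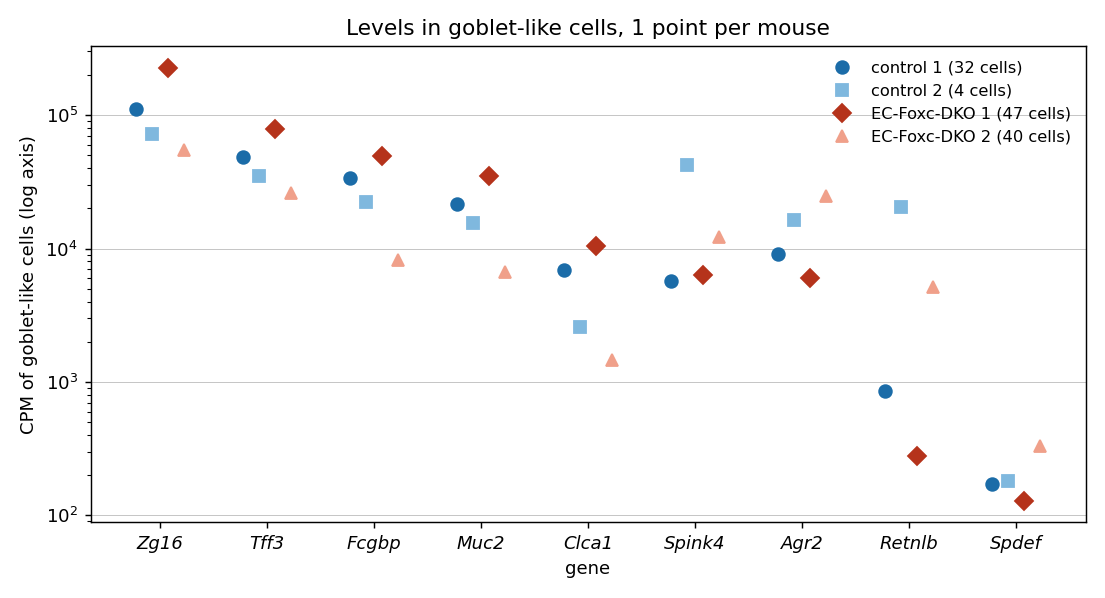
CPM of 9 genes in goblet-like cells on a log axis, 1 point per mouse, with the number of goblet-like cells in the key. EC-Foxc-DKO 1 is the highest mouse for Zg16, Tff3, Fcgbp, Muc2 and Clca1 and the lowest for Agr2, Retnlb and Spdef, so no gene separates the genotypes. Cells rich in Paneth genes are included.

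The Agr2 and Retnlb levels of the control mice came mostly from single cells, and in EC-Foxc-DKO 1 both genes were also high in few cells. In control 1, 1 cell held 3118 of the 4158 Agr2 UMIs, and 1 cell held 383 of the 389 Retnlb UMIs. In control 2, 1 cell held 947 of 981 Agr2 UMIs and 1 cell held 1237 of 1243 Retnlb UMIs. In EC-Foxc-DKO 1 the cells of 40477 and 31323 UMIs gave 3.32% and 3.94% of them to Agr2, against a median of 0.118%. The same cells gave 0.151% and 0.220% to Retnlb, against a median of 0%. The highest cell of EC-Foxc-DKO 2 held 1378 of 22128 Agr2 UMIs, so Agr2 RNA was spread over many cells there. The highest Retnlb cell of that mouse held 1424 of 4618 UMIs, and 16.1% of its own UMIs lay on the Paneth list. Each cell was thinned to 1000 UMIs, which left out 5 cells of control 1 and 1 of EC-Foxc-DKO 1. Agr2 was then found in 51.9%, 25%, 54.3% and 90% of goblet-like cells and Retnlb in 3.70%, 25%, 13.04% and 60%, in the order of mice used above. Unthinned, the shares were 62.5%, 75%, 83.0% and 97.5% for Agr2 and 15.6%, 50%, 34.0% and 87.5% for Retnlb. Follicular B-like cells, which should lack both genes, had an Agr2 UMI in 0% to 2.94% of cells and a Retnlb UMI in 0% to 0.0832%, at median depths of 2754 to 3321 UMIs against 4657 to 20777 in goblet-like cells.

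The comparison of genotypes asked whether endothelial loss of Foxc1 and Foxc2 changed gene levels in goblet-like cells after I/R. It summed UMIs per mouse and used edgeR's quasi-likelihood test with Benjamini-Hochberg adjustment over all genes tested. Of 5246 genes tested, 0 passed an adjusted p of 0.05 (0%), 11 had an unadjusted p under 0.05, and DESeq2 also called 0. Of the 10 genes 9 were tested, Wfdc2 being too low, and 0 passed. The estimated log2 fold change, EC-Foxc-DKO over control, was 0.95 (SE 1.80) for Zg16, 0.64 (SE 1.5) for Tff3 and 0.52 (SE 1.38) for Muc2. It was 0.21 (SE 1.15) for Agr2, -1.33 (SE 1.32) for Spink4 and -2.16 (SE 1.61) for Retnlb, each with an adjusted p of 0.9999. The median over the 9 genes was 0.40 beside 0.05 over all genes tested. With standard errors of this size, differences of severalfold were not detectable, and with 2 mice on each side the smallest p of an exact permutation test, two-sided, is 0.333.

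Single libraries set the direction of these estimates. Without EC-Foxc-DKO 1 the log2 fold change was -0.91 for Zg16, -0.84 for Tff3, -1.63 for Muc2, -1.93 for Fcgbp and -1.87 for Clca1. Without control 2 it was 0.79 for Spink4 and 1.55 for Retnlb. Without cells rich in Paneth genes Spink4 was at 0.57 and Retnlb at 0.93, but control 2 then had 2 cells, under the minimum of 3, and left that fit too, so the removal of those cells and of control 2 cannot be told apart. In the remaining cells of the 4 mice Retnlb had 865, 0, 289 and 3442 CPM, and the part of Paneth-like RNA was not tested.

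To show the regulatory sequence of genes from either order of mice, the 250 bases before the transcription start are given for 2 genes of the first (Muc2, Fcgbp) and 2 of the second (Agr2, Spdef). RefSeq windows on GRCm38.p6 were found for 5 of the 10 genes. The windows are chr7:141690090-141690339 (plus strand) for Muc2, chr7:28070986-28071235 (plus) for Fcgbp, chr12:35992675-35992924 (plus) for Agr2 and chr17:27728952-27729201 (minus) for Spdef. They are written 5′ to 3′ toward the gene, with matches to the searched motifs in capitals.
Muc2: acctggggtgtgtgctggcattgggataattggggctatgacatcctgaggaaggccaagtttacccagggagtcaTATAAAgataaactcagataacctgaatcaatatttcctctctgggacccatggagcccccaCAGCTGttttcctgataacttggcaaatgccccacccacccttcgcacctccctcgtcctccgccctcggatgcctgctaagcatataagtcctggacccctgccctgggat
Fcgbp: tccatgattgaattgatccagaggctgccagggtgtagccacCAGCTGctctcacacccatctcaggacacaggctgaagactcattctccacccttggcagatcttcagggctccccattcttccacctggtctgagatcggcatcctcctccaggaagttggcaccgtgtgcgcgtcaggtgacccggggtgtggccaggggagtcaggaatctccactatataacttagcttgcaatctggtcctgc
Agr2: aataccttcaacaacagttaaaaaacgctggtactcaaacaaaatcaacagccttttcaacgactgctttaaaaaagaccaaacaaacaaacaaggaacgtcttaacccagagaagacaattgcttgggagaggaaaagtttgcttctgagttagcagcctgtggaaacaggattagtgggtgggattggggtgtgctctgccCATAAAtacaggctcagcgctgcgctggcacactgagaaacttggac
Spdef: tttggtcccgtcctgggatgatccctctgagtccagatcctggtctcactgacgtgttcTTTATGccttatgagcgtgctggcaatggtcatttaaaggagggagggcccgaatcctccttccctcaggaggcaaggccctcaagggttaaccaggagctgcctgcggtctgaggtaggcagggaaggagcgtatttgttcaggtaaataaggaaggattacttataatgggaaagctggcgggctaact

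The motifs, searched on both strands, were TATAAA, the E-box letters CAGCTG and CAGATG, the forkhead letters TGTTTAC, the caudal-type (Cdx) letters TTTATG and the ETS letters CCGGAT. Muc2 held TATAAA beginning 174 bases before the start and CAGCTG at 112 bases, and Fcgbp held CAGCTG at 208 bases. Agr2 held the reverse complement of TTTATG at 47 bases and Spdef held TTTATG at 191 bases. Over 32536 promoter windows of the same length, CAGCTG was present in 13.1%, TATAAA in 12.3%, TTTATG in 10.8%, CAGATG in 14.4%, TGTTTAC in 3.17% and CCGGAT in 4.98%. The 2 genes with CAGCTG stand in the first order of mice and the 2 with TTTATG in the second, a description over 4 sequences. Those orders are of all goblet-like cells, the ones rich in Paneth genes included. No link of a motif to a level was tested, and the window of Wfdc2 held none of the motifs. In the GENCODE annotation of GRCm38, Muc2 spans chr7:141690340-141754693, Fcgbp chr7:28071236-28120862, Agr2 chr12:35992907-36004087 and Spdef chr17:27714352-27728955 on the minus strand. The annotation starts Agr2 and Spdef slightly upstream of RefSeq, so the last bases of those windows lie in its first exons. Zg16, at chr7:127050156-127087328 on the minus strand, overlaps 2 annotated genes on the plus strand, and the other 9 genes overlap none.

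Within a mouse, single goblet-like cells differed as widely as the mice did. The share of a cell's UMIs on Zg16 had a median of 10.9% in control 1, 11.5% in control 2, 17.3% in EC-Foxc-DKO 1 and 2.98% in EC-Foxc-DKO 2. The highest cell, in EC-Foxc-DKO 1, gave 46.9% of its UMIs to Zg16, and the lowest in the other 3 mice gave 0%. All shares in this paragraph include cells rich in Paneth genes. In each control mouse the cell at 0% was rich in Paneth genes. In EC-Foxc-DKO 2 most cells at 0% were, though not all. The part of such cells in the spread was not tested. The share on Agr2 had medians of 0.0380%, 0.154%, 0.118% and 2.35% in the same order. In EC-Foxc-DKO 2 the quartiles of the Agr2 share were 0.171% and 3.28%, while the upper quartile was 0.146% in control 1 and 0.285% in EC-Foxc-DKO 1.

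Over all goblet-like cells, the ones rich in Paneth genes included, the gel genes varied together from cell to cell. Across the cells of 1 mouse, on log-scaled shares, Pearson's r of Muc2 with Fcgbp was 0.75 in control 1 (32 cells), 0.81 in EC-Foxc-DKO 1 (47 cells) and 0.69 in EC-Foxc-DKO 2 (40 cells). For Fcgbp with Clca1 it was 0.77, 0.79 and 0.73, and for Zg16 with Tff3 0.80, 0.49 and 0.80. Zg16 with Agr2 gave 0.11, 0.39 and 0.04, so in these mice the folding enzyme did not track the lectin closely. Agr2 followed the depth of the cell, with r of 0.52, 0.65 and 0.52 against its UMI total, and Spdef did so with 0.54, 0.24 and 0.52. In EC-Foxc-DKO 2 the Paneth list ran against Fcgbp (-0.73), Tff3 (-0.65) and Clca1 (-0.63), and in control 1 against Zg16 (-0.52) and Tff3 (-0.53). In EC-Foxc-DKO 1 the same r values lay between -0.01 and 0.11. In EC-Foxc-DKO 2, 10 of 40 cells were rich in Paneth genes. Every cell there with 0 Fcgbp UMIs had 3.48% or more of its UMIs on the Paneth list, and 0 Clca1 UMIs. No r was taken without those cells, and their part in the r values was not tested. The cells of a mouse share a library and their shares compete for the same total, so these r values are descriptive. The 4 cells of control 2 were too few.

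**Figure D3:**
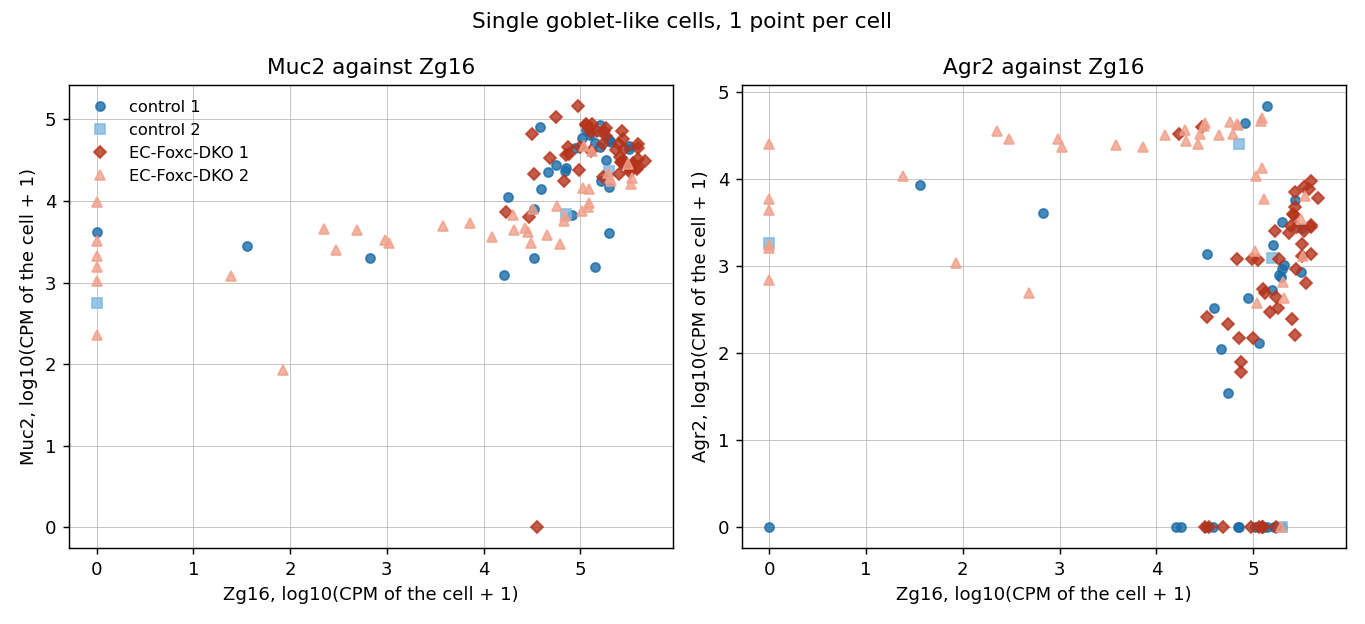
Single goblet-like cells, 1 point per cell, as log10(CPM of the cell + 1) of Muc2 (left) and Agr2 (right) against Zg16. Cells rich in Paneth genes are included. Muc2 has an r with Zg16 of 0.52 in control 1, 0.29 in EC-Foxc-DKO 1 and 0.68 in EC-Foxc-DKO 2, while Agr2 is absent from part of the cells high in Zg16 and high over a wide range of Zg16 in EC-Foxc-DKO 2, whose median share of Agr2 was 2.35%.

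Genes of related function were read from 5 lists in the same goblet-like comparison, and 0 genes of any list passed. Of 10 other mucins, 9 of them in the files, 4 were tested, with a median log2 fold change of 0.21. Muc13, a membrane-bound mucin of the brush border, stood at 1896, 811, 1994 and 669 CPM in control 1, control 2, EC-Foxc-DKO 1 and EC-Foxc-DKO 2. Muc3, another, stood at 816, 99.3, 700.2 and 118 CPM, Muc3a at 127 to 278 and Muc4 at 0 to 33.1. Muc13 and Muc3 were higher in the mice numbered 1 of both genotypes, as Zg16 was. Muc5ac and Muc6, mucins of the stomach surface and glands, had 0 UMIs in every mouse.

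Of 21 other goblet secreted and granule genes, 20 of them in the files, 17 were tested, with a median of 0.14. Lypd8, an anti-bacterial surface protein of the enterocyte and goblet cell, stood at 4903, 3229, 7067 and 2333 CPM, the order of mice seen for Zg16. Itln1, the lectin intelectin, stood at 284, 10514, 49.6 and 1311 CPM, the order seen for Retnlb. Its log2 fold change was -3.18 (SE 1.72, adjusted p 0.9999 by edgeR). Itln1 is also on the Paneth list, which was highest in control 2 (118497 CPM) and next in EC-Foxc-DKO 2 (26791 CPM). The fit included cells rich in Paneth genes, and their part in the Itln1 estimate was not tested. Klk1 and Fxyd3 were the next by level, with log2 fold changes of 0.16 (SE 0.83) and -0.46 (SE 0.76). Of 24 mucin folding and glycosylation genes 20 were tested, with a median of 0.16. Pdia6, a disulfide isomerase, stood at 302, 778, 139 and 672 CPM, and Gcnt3, which builds branched mucin glycans, at 245, 298, 335 and 305. The glycan-starting transferases Galnt7 and Galnt12 had log2 fold changes of 0.45 (SE 0.63) and 0.60 (SE 0.65).

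Of 14 secretory lineage factors 10 were tested, with a median of 0.09. Klf4, a factor of differentiated epithelium, stood at 761, 513, 721 and 430.5 CPM, and Atoh1, the factor that sets the secretory fate, at 174, 132, 231 and 121. Foxa3 stood at 141, 116, 164 and 175 CPM and Cdx1 at 83.8 to 199 CPM, and neither passed the test. Of 8 genes of the type 2 cytokine and IL-22 receptor chain 5 were tested, with a median of 0.03. Il10rb, Il13ra1, Stat3 and Stat6, the highest of them, lay between 0 and 66.2 CPM. The groups did not overlap for 0 mucins, 3 other goblet genes, 7 folding and glycosylation genes, 1 lineage factor and 3 receptor chain genes, beside 14.1% of all genes tested whose groups did not overlap and 0% called.

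Crypt-like cells were led by Olfm4, a marker of stem cells, and by cell-division genes such as Ube2c and Birc5. Control 1 had 20 of these cells, control 2 had 15, EC-Foxc-DKO 1 had 40 and EC-Foxc-DKO 2 had 145, with median depths of 84029.5, 29975, 64469 and 42631 UMIs. The class differed in make-up between mice. A list of 5 stem cell genes stood at 205, 2669, 631 and 174 CPM in that order of mice. A list of 7 enterocyte genes stood at 15173, 1384, 6336 and 5983 CPM. The part of this mix in the levels below was not tested. As these cells chose the genes, what follows is a description. Zg16 stood at 13.8 and 9.72 against 389 and 117 CPM (control against EC-Foxc-DKO mice), a ratio of means of 21.5. Agr2 stood at 9.80 and 7.78 against 90.6 and 40.8 CPM, a ratio of 7.48. Both EC-Foxc-DKO mice were above both control mice for these 2 genes. In EC-Foxc-DKO 1 most of this RNA lay in 1 cell, with 990 UMIs of Zg16 and 226 of Agr2. Without that cell the Agr2 level of EC-Foxc-DKO 1 lay under that of control 1 with all its cells. Spink4 stood at 3.46 and 9.72 against 199 and 26.9 CPM, Muc2 at 6.92 and 5.83 against 39.9 and 7.74, and Fcgbp at 2.31 and 5.83 against 101 and 5.97. For Muc2 and Fcgbp EC-Foxc-DKO 2 lay close to the higher control mouse, for Spink4 it lay above both, and for all 3 genes EC-Foxc-DKO 1 was the highest mouse. Tff3 overlapped between groups, at 8.65 and 235 against 145 and 55.0 CPM.

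Retnlb and Wfdc2 rest on few UMIs. Retnlb had 0 UMIs in both control mice, 24 in EC-Foxc-DKO 1 and 39 in EC-Foxc-DKO 2. This is at least 5.68-fold higher against a floor of 3 UMIs over the control group. All 24 of EC-Foxc-DKO 1 lay in 1 cell, and 2 cells of EC-Foxc-DKO 2 held 19 and 7 of its 39. Wfdc2 UMIs numbered 2, 1, 66 and 89 in the usual order of mice, or 1.15 and 1.94 against 24.4 and 14.4 CPM. The filter on low counts dropped Clca1, with 2 control and 48 EC-Foxc-DKO UMIs, and Spdef, with 1 and 3. It kept Retnlb and Wfdc2, with 0 and 3 control UMIs, only through the EC-Foxc-DKO mice, where they are high. In all, 7 of the 8 genes past the filter were higher in both EC-Foxc-DKO mice than in either control mouse, beside 13.3% of the 9281 genes tested. The filter thus favoured this pattern for Retnlb and Wfdc2, and 4 of the 10 genes were chosen for it. Nothing is therefore read from that count, and edgeR called 0% of the genes tested. There 229 genes had an unadjusted p under 0.05, and DESeq2 called 4.

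A few cells carried most of this RNA. In EC-Foxc-DKO 1, 1 crypt-like cell of 179511 UMIs held 2395 UMIs of the 10 genes, 87.2% of the class in that mouse. It had 990 UMIs of Zg16, 509 of Spink4, 250 of Fcgbp, 226 of Agr2 and all 24 of Retnlb. These UMIs were 1.33% of the cell's own total, a share far under the 41.4% of goblet-like cells in the same mouse. In EC-Foxc-DKO 2, 2 cells of 145 held 34.4% and 26.2%, with 373 and 298 UMIs of Zg16. In control 2, 1 cell held 120 of the 121 Tff3 UMIs. None of these cells was among the 292 with the highest doublet scores.

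Without the cell with the most UMIs of the 10 genes in each mouse, the log2 fold change fell from 4.36 to 1.95 for Zg16, from 2.84 to 1.43 for Agr2 and from 4.44 to 1.43 for Spink4. Muc2 went from 1.82 to -0.24 and Tff3 from -0.21 to 2.84. Wfdc2 stayed at 3.79 and 3.78, because its highest cell was another one, with 47 of the 66 UMIs of EC-Foxc-DKO 1. These refits were chosen after the cells were seen. They left in the second cell of EC-Foxc-DKO 2, with 298 UMIs of Zg16, 44 of Spink4 and 20 of Muc2. No refit without both of those cells was made, so the remaining estimates still include it. Agr2 in EC-Foxc-DKO 2 was spread widely: 90 of 145 cells had a UMI (62.1%, exact binomial 95% interval 53.6% to 70.0%), and the highest cell held 13 of 253. In EC-Foxc-DKO 1 the share was 27.5% (14.6% to 43.9%), beside 50% (27.2% to 72.8%) in control 1 and 26.7% (7.79% to 55.1%) in control 2. By share of cells with a UMI, the genotypes overlapped for Agr2. These shares were taken at full depth, a median of 84029.5 UMIs in control 1 and 42631 in EC-Foxc-DKO 2. The part of depth in this overlap was not tested. Wfdc2 had a UMI in 10% (1.23% to 31.7%) and 6.67% (0.169% to 31.9%) of control cells and in 22.5% (10.8% to 38.5%) and 22.1% (15.6% to 29.7%) of EC-Foxc-DKO cells. The 4 intervals overlap, and they cover counting error only. For scale, pooled non-epithelial cells, at median depths of 3647 to 6042 UMIs, had an Agr2 UMI in 1.24% to 2.94% of cells and a Wfdc2 UMI in 0%.

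**Figure D4:**
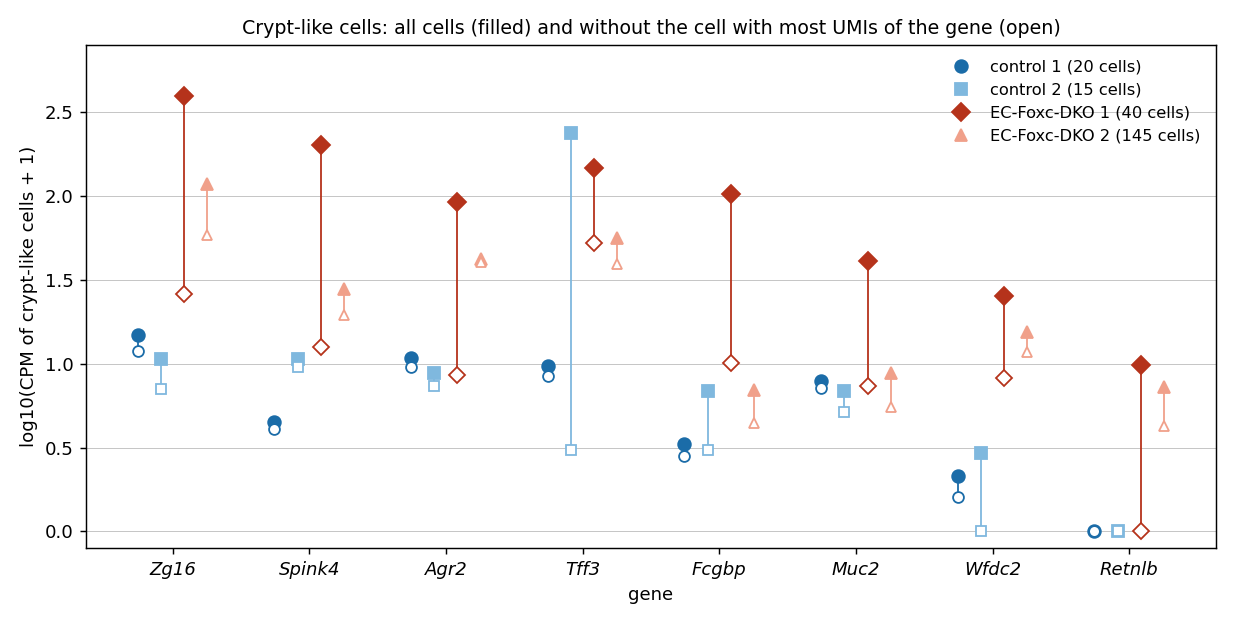
Level in crypt-like cells as log10(CPM + 1), with 1 filled point per mouse for all cells and an open point after removal of the single cell with most UMIs of that gene. Zg16 in EC-Foxc-DKO 1 falls from 389 to 24.9 CPM and Tff3 in control 2 from 235 to 2.06 CPM. Agr2 in EC-Foxc-DKO 1 falls from 90.6 CPM to under the filled point of control 1, while in EC-Foxc-DKO 2 it moves from 40.8 to 39.0 CPM. The open Zg16 point of EC-Foxc-DKO 2 still includes a second cell with 298 Zg16 UMIs.

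The 5 related lists had 0 genes called in crypt-like cells, beside 0% of all genes. Their median log2 fold changes were -0.28 for other mucins (4 tested), 0.16 for other goblet genes (7), 0.36 for folding and glycosylation (15), -0.02 for lineage factors (8) and 0.47 for the receptor chain (6), beside 0.00 over all genes tested. Lypd8, the highest of the goblet list, stood at 1423 and 785 CPM in control mice and 1742 and 2479 CPM in EC-Foxc-DKO mice. Muc13 stood at 349.9 and 255 against 224 and 223 CPM, and Pdia6 at 248 and 146 against 243 and 256 CPM. Cdx1 and Cdx2, caudal-type factors of intestinal identity, had log2 fold changes of 0.21 and -0.52. Atoh1 had 0 and 3.89 CPM in control mice and 2.59 and 0 in EC-Foxc-DKO mice. Stat6, a transducer of IL-4 and IL-13 signals, stood at 60.0 and 64.1 against 71.4 and 72.7 CPM.

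In enterocyte-like cells, the absorptive cells of the villus, the CPM of Zg16 and Fcgbp lay under that of pooled non-epithelial cells in every mouse. The CPM of Muc2 did in 3 of 4. The enterocyte-like cells numbered 756, 47, 446 and 353, at median depths of 23187 to 30788 UMIs. Pooled non-epithelial cells had 3647 to 6042 UMIs, so the CPM stand at unlike depths, and UMIs per cell were not compared. Zg16 stood at 54.1 and 11.7 against 55.9 and 13.5 CPM (control against EC-Foxc-DKO mice). Tff3 stood at 147 and 11.7 against 84.9 and 12.6 CPM, and Muc2 at 13.3 and 4.69 against 13.4 and 2.1 CPM. The mice numbered 1 were above those numbered 2 in both genotypes for these 3 genes, and the groups overlap. The class differs in make-up: top cells were 262 of 756, 4 of 47, 128 of 446 and 4 of 353 in the usual order of mice. The part of this mix in the order was not tested. Tff3, like Zg16, Muc2 and Fcgbp, had a gradient along the villus in both mice with enough cells of each kind. In control 1 it stood at 16.5 CPM in bottom, 41.3 in middle and 687 in top enterocyte-like cells, and in EC-Foxc-DKO 1 at 20.8, 49.2 and 333. The top cells of the other 2 mice, 4 each, gave 0 and 25.3 CPM. The top-cell Tff3 levels of control 1 and EC-Foxc-DKO 1 lie above the 65.4 and 85.2 CPM of their pooled non-epithelial cells. The highest Zg16 level of any mouse was 30.7 CPM in bottom, 67.7 in middle and 178 in top cells. Median depth fell from bottom through middle to top cells, at 38924, 29459 and 13666.5 UMIs in control 1. In EC-Foxc-DKO 1 it was 35293, 26828 and 14635.5 UMIs, and the part of depth in these gradients was not tested.

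Agr2 had the largest estimate among the genes in enterocyte-like cells. It stood at 1.86 and 1.56 CPM in control mice and at 1.59 and 12.5 CPM in EC-Foxc-DKO mice, so EC-Foxc-DKO 2 was high and EC-Foxc-DKO 1 lay within the control range. The log2 fold change was 2.00 (SE 0.94; adjusted p 0.9996 by edgeR's quasi-likelihood test). In EC-Foxc-DKO 2, 13.03% of cells had an Agr2 UMI (9.70% to 17%), against 3.81% (2.24% to 6.03%) in EC-Foxc-DKO 1 and 3.97% (2.69% to 5.62%) in control 1. The 47 cells of control 2 were too few to set its share apart from that of EC-Foxc-DKO 2. With no filter on low counts the estimate was 2.00 with an adjusted p of 0.0424 by edgeR, in a fit that called 76 of 16718 genes. Without EC-Foxc-DKO 1, a fit with EC-Foxc-DKO 2 alone in its group, it was 2.84. Without EC-Foxc-DKO 2 it was -0.16. Of the 10 genes 7 were tested and 0 passed, beside 0% of 10269 genes, with 154 at an unadjusted p under 0.05 and 2 called by DESeq2. In bottom enterocyte-like cells, where every mouse had at least 26, 6 of the 10 were tested and 0 passed, beside 0% of 9666 genes, with 280 unadjusted and 7 by DESeq2. Agr2 stood there at 2.45, 2.45, 1.62 and 12.7 CPM, with a log2 fold change of 1.67 (SE 0.91, adjusted p 0.9999 by edgeR). Without EC-Foxc-DKO 1 the estimate was 2.44, again with EC-Foxc-DKO 2 alone in its group.

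Retnlb and Wfdc2 were all but absent from enterocytes. Retnlb had 1, 0, 1 and 5 UMIs over the enterocyte-like cells of the 4 mice and Wfdc2 0, 0, 2 and 1. In the related lists, 0 genes passed in enterocyte-like cells. The median log2 fold changes were 0.27 for other mucins, 0.31 for other goblet genes, 0.29 for folding and glycosylation, 0.03 for lineage factors and -0.09 for the receptor chain, beside 0.00 over all genes. Muc13 and Muc3 were well expressed here, at 923 to 1706 and 362 to 806 CPM. St3gal4, a sialyltransferase, ranged from 652 to 872 CPM and Lypd8 from 1645 to 3551 CPM.

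Follicular B-like cells, which should lack these genes, gave the same comparison for background RNA, whose source was not tested. Of the 10 genes 4 were tested and 0 passed, beside 0% of 3424 genes, with 66 at an unadjusted p under 0.05 and 0 by DESeq2. Zg16 stood at 126 and 63.0 CPM in control mice and 249 and 38.7 CPM in EC-Foxc-DKO mice, with a log2 fold change of 0.84 (SE 0.51; adjusted p 0.9997 by edgeR). The order of mice was that of goblet-like cells, EC-Foxc-DKO 1 highest and EC-Foxc-DKO 2 lowest. Muc2, at 40.6, 15.8, 65.0 and 0 CPM, and Fcgbp, at 57.2, 15.8, 72.4 and 9.69 CPM, had the same order.

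Other secretory cells shared part of the set. Enteroendocrine-like cells, the hormone producers, numbered 25, 5, 24 and 23 and held Tff3 at 1873, 2511, 1344 and 2819 CPM, from 1.69% to 10.8% of the level of goblet-like cells in the same mouse. Agr2 stood there at 1590 and 277 CPM in control mice and 816 and 303 CPM in EC-Foxc-DKO mice, or 17.3%, 1.71%, 13.5% and 1.22% of the goblet-like level. Zg16 in the same cells, at 17.8 to 97.7 CPM, was near the level of pooled non-epithelial cells. Agr2 and Tff3 were thus high in cells with Zg16 near background, although in control 1 the 2 cells with most UMIs of the set were among those with the highest doublet scores. Tuft-like cells, chemosensory cells that respond to parasites, numbered 22, 3, 28 and 13. They held Tff3 at 103, 2185, 287 and 1627 CPM, Spdef at 14.3, 76.0, 12.2 and 14.6 CPM, and Retnlb at 0, 0, 0 and 610.5 CPM. In EC-Foxc-DKO 2, 7 of 13 tuft-like cells had a Retnlb UMI, and 1 cell held 108 of the 167.

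In a cluster led by 2610528A11Rik, Sprr2a3 and Gml2, a few cells held most UMIs of the set in control 1 and EC-Foxc-DKO 2. In control 1, 1 cell held 68.1% of them. Zg16 stood at 142 and 0 CPM in its control cells (66 and 3) and at 36.0 and 1258 CPM in its EC-Foxc-DKO cells (35 and 180). In EC-Foxc-DKO 2, 3 of the 180 cells held 33.1%, 28.1% and 16.1% of all UMIs of the set, the first giving 19.5% of its own UMIs to them. Wfdc2 reached 37.7 CPM in EC-Foxc-DKO 1, where 1 cell held 41 UMIs.

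Across 19 named classes, the genes outside the set whose level followed the mean of the 10 most closely were Wincr1 (Pearson's r 0.95), Mptx1, Gm41804, Gm40922, P2ry4, Chrm1, Gm45447 and Mmp7 (0.94). Mmp7, a protease of Paneth cells that activates defensins, averaged 925 CPM in goblet-like cells, at 212, 2549.8, 82.2 and 858 CPM in the usual order of mice, and the other 7 genes averaged 4.14 to 15.7 CPM. Gm41804, Gm40922 and Gm45447 each stood at 16.6 CPM in control 2, which is 1 UMI among its 4 cells, and at 0 to 2.25 CPM in the other mice, so their likeness rests on very few UMIs. The order of mice for Mmp7 was that of Retnlb in all goblet-like cells. Mptx1, a pentraxin, averaged 9.46 CPM and P2ry4, a nucleotide receptor, 15.7 CPM. Among the 10 genes themselves, Fcgbp followed the mean best (0.97) and Wfdc2 least (0.52). The classes share libraries and depth, so these r values are descriptive.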

How the data were processed

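The authors captured single cells with 10x Genomics 3′ chemistry and deposited UMI counts per gene and barcode, made with Cell Ranger 4.0.0 per the file headers against the mouse genome mm10 with Cre added. The deposited values are raw counts, not divided by gene length. Their joined count table gave only its 18407 gene identifiers, since its barcodes name no mouse. Barcodes with up to 10% mitochondrial UMIs over those genes were kept. They were clustered with scanpy 1.11.5 and leidenalg 0.10.2 (2738 variable genes, 15 components, 15 neighbours, resolution 0.5) under Python 3.11.15. Of 22 clusters, 2 (374 cells) stayed unnamed. Doublets were not removed, except in an alternative that left out the 292 cells with the highest Scrublet scores.

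Counts were summed per mouse and class, for classes with at least 3 cells in each mouse, and tested with edgeR 4.0.16 (filterByExpr, TMM, quasi-likelihood, Benjamini-Hochberg at 0.05; R 4.3.3), with DESeq2 1.42.0 as an alternative. The script was also tested on simulated data. Groups came from the sample labels, with 2 mice each. Whether the 2 mice of a group shared a litter or a day is not given in the sources used here. Exact 95% binomial intervals cover counting error only, and kept cells had median depths of 4255 to 19871 UMIs per mouse. Alternatives changed the test, scaling, filter, replicate block, mitochondrial limit, clustering genes, resolution, doublets, weighting of cells and thinning, and left out each mouse.

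The 10 genes and all lists were chosen with earlier results of these data known. Named genes were the 10 genes, the 4 genes of highest mean CPM in each of 5 lists (mucins, other goblet genes, mucin folding and glycosylation, secretory lineage factors, type 2 and IL-22 receptor chain), the 8 genes of most similar pattern over classes, and the deleted genes. A list of Paneth genes served as a check. Atoh1 in crypt-like cells and Fut2 were named after their values were seen.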

Additional observations from a re-analysis of the deposited data

Results flagged for a closer look

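Barcodes over the 10% mitochondrial limit, 5177 and 3275 in the control libraries and 4605 and 4007 in the EC-Foxc-DKO libraries, entered no comparison at that limit, and those up to 20% entered only the alternative with the 20% limit. Agr2 and Spdef are given because, of the 10 genes, only they were higher there in both EC-Foxc-DKO libraries than in both control libraries. The others overlapped, such as Zg16 at 891 CPM in both control libraries and 1515 and 572 CPM in the EC-Foxc-DKO libraries. The share of all genes with this pattern was not taken. In these barcodes Agr2 stood at 21.2 CPM in EC-Foxc-DKO 1 and 169 CPM in EC-Foxc-DKO 2, above 8.21 CPM in control 1 and 19.3 CPM in control 2. Spdef stood at 1.79 CPM in EC-Foxc-DKO 1 and 2.11 CPM in EC-Foxc-DKO 2, beside 1.47 and 1.63 CPM in the control libraries, from 65, 33, 61 and 19 UMIs in that order. The difference was not tested, and the part of the mix of cell types among these barcodes was not tested.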

How the results depend on the processing

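Genes called in goblet-like cells numbered 0, and 3 with no filter on low counts and 1 to 24 when 1 mouse was left out. A fit without Paneth-rich cells called 1, but it also lost control 2, whose 2 remaining cells were too few, and leaving out control 2 alone called 1 as well. In bottom enterocyte-like cells DESeq2 called 7, no filter 156 and fits without 1 mouse 0 to 818. In all enterocyte-like cells the counts were 2 by DESeq2, 76 with no filter and 0 to 94 without 1 mouse, in follicular B-like cells 4 with no filter and 0 to 16, and in crypt-like cells 4 by DESeq2, 106 with no filter and 3 to 17. A fit without 1 mouse leaves a lone sample in its group, which is assumed to vary like the others.

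With the replicate number as a replicate block, genes called numbered 14 in goblet-like, 3 in bottom enterocyte-like, 16 in all enterocyte-like, 1 in follicular B-like and 0 in crypt-like cells, and none of the 10 genes was called under the block. The block turned the log2 fold change of Muc2 to -0.15 and Fcgbp to -0.34 in goblet-like cells, and Zg16 to 0.14 and Spink4 to -0.046 in enterocyte-like cells. Deviations of same-numbered mice correlated at 0.45 in goblet-like, -0.15 in bottom enterocyte-like, 0.18 in all enterocyte-like and -0.32 in crypt-like cells, and with 2 pairs the numbers were not taken to pair the mice. Crossed numbers, chosen after seeing the data, gave 118 calls in bottom enterocyte-like and 7 in crypt-like cells.

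In goblet-like cells a mitochondrial limit of 20% gave log2 fold changes of -0.13 for Muc2, -0.32 for Fcgbp, -0.014 for Clca1 and -0.023 for Tff3. The mean of the cells' own CPM gave -0.056, -0.27, -0.14 and -0.36 for the same genes. Without Paneth-rich cells and control 2, also chosen after seeing the data, Spink4 was at 0.57 and Retnlb at 0.93, and without control 2 alone they were at 0.79 and 1.55. DESeq2 put Zg16 in enterocyte-like cells at 0.092. Leaving out 1 mouse moved goblet-like estimates over -1.63 to 1.33 for Muc2, -1.93 to 1.23 for Fcgbp, -1.87 to 1.72 for Clca1, -0.91 to 1.71 for Zg16, -0.66 to 0.83 for Agr2, -0.84 to 1.34 for Tff3, -2.06 to 0.79 for Spink4, -4.86 to 1.55 for Retnlb and -0.039 to 0.75 for Spdef. In enterocyte-like cells the ranges were -2.27 to 0.79 for Muc2, -2.71 to 1.45 for Fcgbp, -2.17 to 0.89 for Clca1, -1.38 to 1.62 for Zg16, -0.16 to 2.84 for Agr2, -2.68 to 2.11 for Tff3 and -0.26 to 0.33 for Spink4. In crypt-like cells they were 0.23 to 2.64 for Muc2, 0.74 to 4.94 for Fcgbp, 2.26 to 5.22 for Spink4, 3.22 to 5.02 for Zg16, 2.14 to 3.35 for Agr2, 3.25 to 4.13 for Wfdc2 and -1.25 to 3.56 for Tff3. Thinning moved the mean share of goblet-like cells with a UMI to 98.1% for Muc2, 55.3% for Agr2, 88.1% for Tff3 and 14.8% for Spdef. The cause was not tested for any of these. Among the settings that keep all mice, 71 goblet-like values kept their direction and side of the threshold and 10 turned, and for enterocyte-like cells 66 did and 3 turned, with 1 newly called.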

Other observations

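Fut2, a fucosyltransferase that adds terminal fucose to mucin glycans, was picked after its values were seen. In enterocyte-like cells Fut2 had 5, 0, 37 and 39 UMIs in control 1, control 2, EC-Foxc-DKO 1 and EC-Foxc-DKO 2, or 0.227, 0, 2.94 and 4.31 CPM. Both EC-Foxc-DKO mice lay above both control mice. The log2 fold change of Fut2 was 4.09 (SE 0.74), with an adjusted p of 0.9996 by edgeR's quasi-likelihood test. Goblet-like cells held 0, 0, 4 and 65 UMIs of Fut2 in the same order of mice, and crypt-like cells 0, 0, 0 and 41.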
